A study of Homo sapiens with 20 samples.

Results

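The aminoacyl-tRNA synthetases are the enzymes that join each amino acid to its transfer RNA, and 36 of their genes were followed here through 20 RNA-seq libraries. The members were listed by name, 20 cytosolic enzymes and 16 mitochondrial enzymes, and all 36 were found as 1 row each among the 60656 rows of the count table. All 36 were also among the 24790 rows that passed the filter on low counts. The cytosolic genes are named as in the file, with a final 1 (AARS1 for the alanyl enzyme), except FARSA and FARSB, the subunits of the phenylalanyl enzyme. Names ending in 2 are mitochondrial enzymes.

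The libraries came from SW1990, a line of human pancreatic cancer cells, and the title of the series speaks of pancreatic cancer in mice. The 4 groups of 5 samples received different treatments from Traditional Chinese Medicine. They are labelled clearing Heat and removing Dampness (heat-clearing), strengthening spleen and regulating qi-flowing (spleen-strengthening), eliminating heat by nourishing yin (yin-nourishing), and activating blood and removing stasis (blood-activating). No untreated group was analysed here, so each comparison is between treatments. Herbs, doses and durations are not stated in the labels. Nor do the labels say whether the samples of a group came from separate mice, tumours or cultures, so p-values reflect the spread among these libraries, which may be technical. All samples share a single cell line. Libraries are called by their treatment and the number in their title.

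A synthetase recognises an amino acid and its tRNAs, and charges the tRNA in a reaction that uses ATP. The cytosolic and mitochondrial sets supply separate translation systems, and all are encoded in the nucleus. Some cytosolic enzymes sit in a multi-synthetase complex held by the scaffold proteins AIMP1, AIMP2 and EEF1E1. Many cytosolic synthetase genes are known targets of ATF4, the transcription factor that cells make when amino acids run short or the endoplasmic reticulum is stressed. Glycyl and lysyl enzymes for both compartments come from single genes, GARS1 and KARS1, counted here as cytosolic.

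Library totals were 81.7 to 135 M counts (M stands for mega). The markers of tumour epithelium EPCAM and KRT19 were detected in every library, at 77.5 to 126 CPM (counts per M counts) and 745 to 1237 CPM. A set of 5 libraries, heat-clearing 1 and 2 and blood-activating 1, 8 and 9, stood apart in RN7SK, the small nuclear 7SK RNA: it took 5.25% to 7.38% of their counts, against 1.57% to 3.02% in the other 15. These 5 libraries are called RN7SK-high below, a split drawn from the data and not a group of the study, with the limit at 4%. The summed level of 14 markers of stroma, endothelium, blood and immune cells was 119 to 158 CPM in the RN7SK-high libraries and 87.3 to 122 CPM in the others. CD68 and COL1A1 had the highest medians of these markers, 50.3 and 27.1 CPM, and PECAM1 was next at 10.1 CPM. HBB was at 0 in 15 libraries and PTPRC in 10. The summed level of 19 acinar markers, genes of the enzyme-secreting cells of the pancreas, was 4.37 to 380.2 CPM in heat-clearing, 3.45 to 76.4 CPM in spleen-strengthening, 3.56 to 1039 CPM in yin-nourishing and 11.4 to 961 CPM in blood-activating libraries. AMY2A, which is an acinar marker, was at 0 in 10 libraries. The stromal and immune markers were not tried as a covariate. With the summed acinar level as a covariate, edgeR called SARS1 and AARS2 in spleen-strengthening minus blood-activating, both lower in spleen-strengthening. In that pair the same fit called 1832 of all 24790 rows. It called 0 members in the other comparisons, with 41 of 24790 rows called in yin-nourishing minus blood-activating. In such bulk samples, fewer cells of a type and less RNA per cell cannot be told apart.

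A feature of sequence looked for in these genes is the word TGATGNAA, known as the core of the C/EBP-ATF response element through which ATF4 acts. The word was searched on both strands of promoter windows that run from 250 bases before to 50 bases after a gene's start (RefSeq, GRCh38.p14). Windows were found for 30 of the 36 members, and the other 6 had none. The word stood in a window of 8 of these 30 members (26.67%), against 3.62% of all 35116 windows and 4.46% of 27305 genes. It was in 7 of 16 cytosolic members and 1 of 14 mitochondrial members. Of the 12 cytosolic members listed as ATF4 targets from general knowledge, 10 had a window and 7 of these held the word, against 0 of the 6 other cytosolic members with a window. All 8 matches and that of ASNS, the asparagine synthetase gene and a standard ATF4 target, are shown with 11 bases on each side, read 5′ to 3′ on the strand that holds the word, which is in capitals.
AARS1 chr16:70289675-70289704, plus strand: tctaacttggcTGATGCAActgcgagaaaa
CARS1 chr11:3057407-3057436, plus strand: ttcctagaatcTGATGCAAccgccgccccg
GARS1 chr7:30594834-30594863, minus strand: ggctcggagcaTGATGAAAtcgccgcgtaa
IARS1 chr9:92293692-92293721, plus strand: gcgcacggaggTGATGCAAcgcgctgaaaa
MARS1 chr12:57488053-57488082, minus strand: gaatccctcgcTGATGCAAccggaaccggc
NARS1 chr18:57621804-57621833, minus strand: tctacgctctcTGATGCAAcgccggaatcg
TARS1 chr5:33440956-33440985, minus strand: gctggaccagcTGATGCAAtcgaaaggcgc
YARS2 chr12:32756076-32756105, minus strand: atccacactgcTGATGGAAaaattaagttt
ASNS chr7:97872458-97872487, minus strand: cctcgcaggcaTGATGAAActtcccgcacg
The cytosolic matches carried C at the free base in 6 genes and A in GARS1. The A form was also that of ASNS, and YARS2 carried G. Positions were counted along the gene's own strand, whichever strand held the word. By that count, the first base of the match lay within 4 bases of the annotated start in CARS1, MARS1 and TARS1. In AARS1 and YARS2 it lay at positions -187 and -197, counted from the start. A match is a description, not a site or a cause.

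IARS1, the cytosolic isoleucyl enzyme and a subunit of the complex, is the 1 member with both a match and a place among the smallest p-values below. Its whole window is shown on the gene's own strand, where the match in capitals reads as the reverse complement, TTGCATCA.
IARS1 chr9:92293648-92293947, minus strand: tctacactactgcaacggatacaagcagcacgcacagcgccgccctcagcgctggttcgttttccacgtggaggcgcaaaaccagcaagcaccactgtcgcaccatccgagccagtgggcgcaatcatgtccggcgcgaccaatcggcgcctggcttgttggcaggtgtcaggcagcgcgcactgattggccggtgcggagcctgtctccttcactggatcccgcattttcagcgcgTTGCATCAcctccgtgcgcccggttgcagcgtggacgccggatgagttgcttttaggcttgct
HARS1 and HARS2, the cytosolic and mitochondrial histidyl genes, lie head to head with starts 85 bases apart, so their windows share 184 bases. This stretch, chosen for its layout after values were seen, held no match.
HARS1 and HARS2 chr5:140691321-140691504, plus strand: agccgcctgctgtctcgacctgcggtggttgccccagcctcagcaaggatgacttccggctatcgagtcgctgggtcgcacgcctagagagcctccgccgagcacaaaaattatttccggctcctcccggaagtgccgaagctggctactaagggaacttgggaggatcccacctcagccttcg

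Cytosolic synthetase mRNA was more abundant per length than mitochondrial synthetase mRNA. The median over members was 20.5 CPM per kb of principal transcript (GENCODE release 29) for the cytosolic set and 3.47 CPM per kb for the mitochondrial set. RARS1, the arginyl enzyme of the complex, had the highest level, 70.4 ± 12.2 CPM per kb (SD, n = 20 libraries), followed by KARS1 at 67.99 ± 8.27 CPM per kb and WARS1, the tryptophanyl enzyme known as interferon-inducible, at 53.4 ± 8.45 CPM per kb. RARS1 and KARS1 did not differ beyond their spread. The lowest cytosolic levels were those of CARS1 (cysteinyl) at 3.57 ± 0.801 CPM per kb, VARS1 (valyl) at 3.70 ± 1.11 CPM per kb and YARS1 (tyrosyl) at 5.06 ± 1.09 CPM per kb. These 3 neighbours overlapped between libraries. The mitochondrial set was led by CARS2 at 36.04 ± 6.26 CPM per kb, IARS2 at 28.8 ± 2.51 CPM per kb and RARS2 at 10.03 ± 0.944 CPM per kb. It ended with PARS2 (prolyl) at 1.02 ± 0.407 CPM per kb, SARS2 (seryl) at 1.02 ± 0.467 CPM per kb and VARS2 (valyl) at 0.302 ± 0.285 CPM per kb. PARS2 and SARS2 did not differ beyond their spread.

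**Figure D1:**
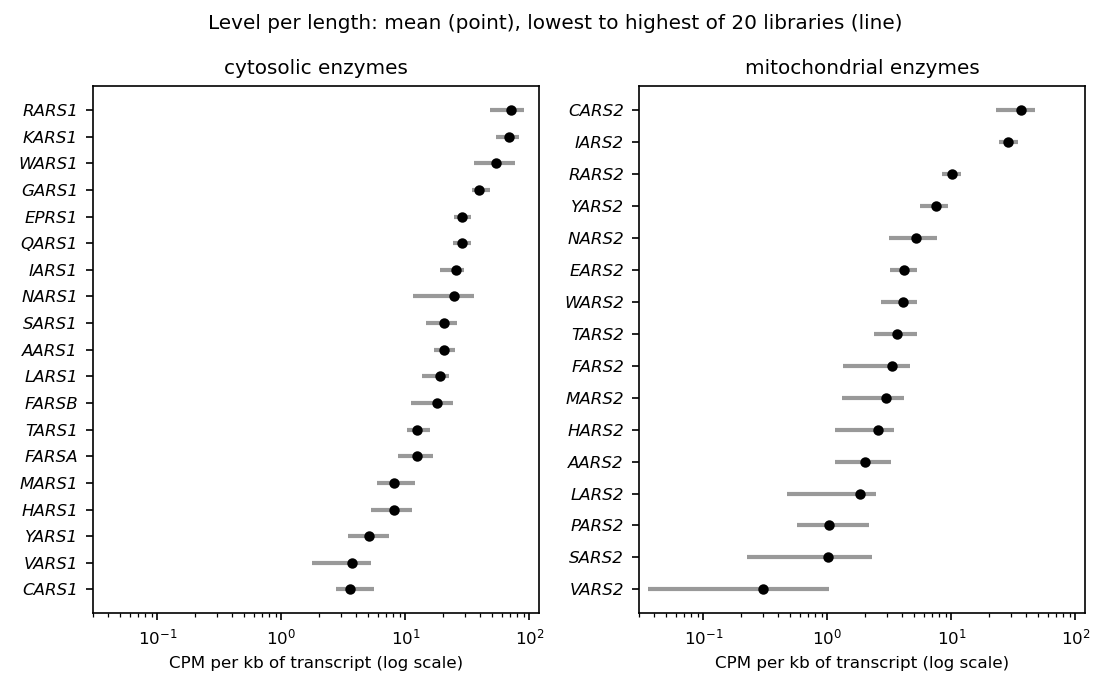
Level of 35 of the 36 synthetase mRNAs in CPM per kb of principal transcript, on a log axis, with the mean of 20 libraries as a point and the lowest to highest library as a line. Cytosolic enzymes (left) run up to RARS1 at 70.4 CPM per kb and mitochondrial enzymes (right) down to VARS2 at 0.302 CPM per kb.

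The balance between the compartments differed between amino acids. Of the 13 amino acids with 1 gene for each compartment in the list, 10 had the higher level per length in the cytosolic gene in 20 of 20 libraries. The median ratio of cytosolic to mitochondrial CPM per kb was 24.2 for the seryl pair, 18.2 for the valyl pair, 12.9 for the tryptophanyl pair and 10.8 for the alanyl pair. It was 2.64 for the methionyl pair and 2.99 for the histidyl pair. In 3 pairs the mitochondrial gene was the higher one in most libraries. The isoleucyl pair had a median ratio of 0.898, with the cytosolic gene higher in 2 libraries, and the tyrosyl pair had 0.631, with the cytosolic gene higher in 1 library. The cysteinyl pair had 0.0889, and CARS2 was above CARS1 in 20 of 20 libraries. With the length of all annotated exons in place of the principal transcript, the methionyl ratio was 1.09 and the cytosolic gene was higher in 12 of 20 libraries. By that length the histidyl ratio was 1.38, the tyrosyl ratio 0.252 and the cysteinyl ratio 0.132, and in each of these pairs the same gene had the higher median.

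Most members varied little between samples of a treatment. The median SD within treatments, on the log2 CPM scale, was 0.225 for the cytosolic members and 0.337 for the mitochondrial members, against 0.602 over all 24790 rows tested, whose median level is lower. EPRS1, the fused glutamyl and prolyl enzyme, had a highest library 1.36 times its lowest, and GARS1 (glycyl) 1.38 times. SARS2 ran from 0.459 to 4.66 CPM and VARS2 from 0.147 to 4.23 CPM. In the annotation, 46.2% of the exonic bases of SARS2 are shared with AC011455.2 and 22% of those of VARS2 with GTF2H4, both on the same strand, so their counts are uncertain. HARS1 and HARS2 share 437 exonic bases on opposite strands, and MARS1 shares 355 with DDIT3, the stress-response factor CHOP. The library kit keeps strand, per the labels, but the strand setting of the counting is not stated.

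**Figure D2:**
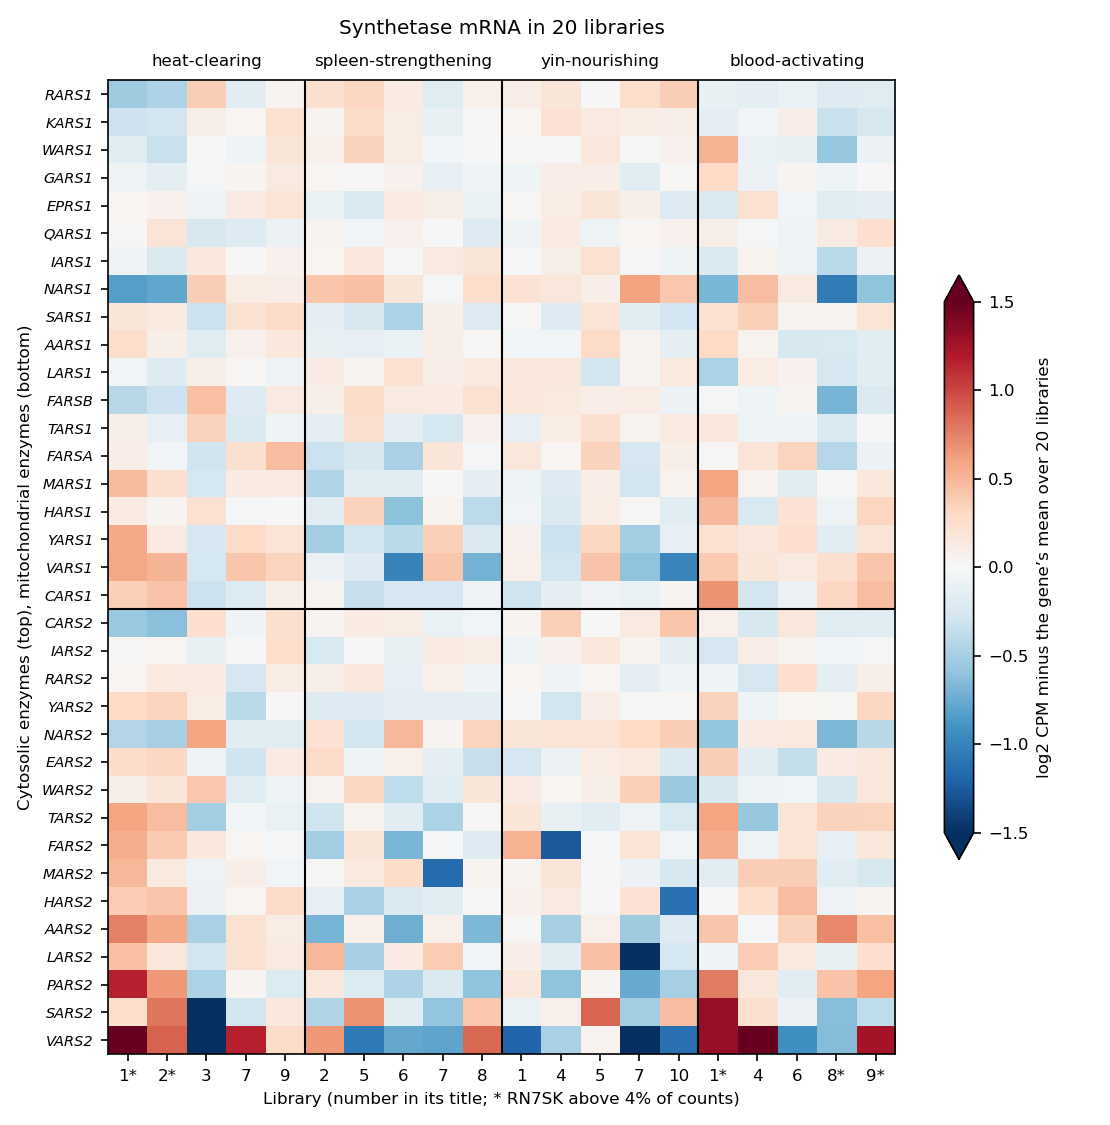
Log2 CPM of 35 of the 36 members in 20 libraries, each as its difference from the gene's own mean over the libraries, with cytosolic enzymes above the line and mitochondrial enzymes below. Colours stop at 1.5 in both directions, and asterisks mark the 5 RN7SK-high libraries, where NARS1 is at 35.4 to 48.0 CPM, against 72.1 to 111 CPM in the others.

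No synthetase passed the test across the 4 treatments. With the quasi-likelihood test of edgeR, 0 of 36 members had an adjusted p under 0.05, as did 0% of all rows tested. At an unadjusted p under 0.05 there were 3 members, AARS2, VARS2 and SARS1, against 15.4% of all rows. DESeq2 called 1 member, AARS2 (adjusted p = 0.0452), against 4.97% of all rows in that tool. Limma voom with quality weights called 3, NARS1, AARS2 and NARS2, against 13.4%.

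AARS2, the mitochondrial alanyl enzyme (chr6:44299654-44313326, minus strand, GRCh38), had the smallest p of the members in this test. It was at 12.4, 10.95, 5.26, 8.65 and 7.99 CPM in heat-clearing 1, 2, 3, 7 and 9, and at 4.57, 7.76, 4.43, 7.75 and 4.62 CPM in spleen-strengthening 2, 5, 6, 7 and 8. It was at 7.48, 5.22, 7.75, 5.12 and 6.46 CPM in yin-nourishing 1, 4, 5, 7 and 10, and at 9.81, 7.24, 9.37, 12.2 and 10.1 CPM in blood-activating 1, 4, 6, 8 and 9. The 5 RN7SK-high libraries held the 5 highest values, and the ranges of all 4 treatments overlapped. In the 4-treatment edgeR test it had unadjusted p = 0.00878, adjusted p = 0.191. Its mean was 5.83 ± 1.76 CPM in spleen-strengthening and 9.73 ± 1.76 CPM in blood-activating samples (SD, n = 5 each), a log2 difference of -0.74 (SE 0.232, adjusted p = 0.0977) in edgeR. Without the RN7SK-high libraries that difference was -0.50 (adjusted p = 0.839), and without blood-activating 4 it was -0.85 (adjusted p = 0.0388). The yin-nourishing minus blood-activating difference was -0.60 (SE 0.231, adjusted p = 0.175), heat-clearing minus spleen-strengthening 0.64 (SE 0.232, adjusted p = 0.326), and heat-clearing minus yin-nourishing 0.50 (SE 0.231, adjusted p = 0.481).

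VARS2, the mitochondrial valyl enzyme (chr6:30908242-30926459, plus strand), was the member of lowest level. It was at 4.23, 1.55, 0.288, 1.88 and 1.02 CPM in heat-clearing libraries, and at 1.31, 0.403, 0.491, 0.482 and 1.52 CPM in spleen-strengthening libraries. It was at 0.366, 0.599, 0.870, 0.147 and 0.385 CPM in yin-nourishing libraries, and at 2.08, 3.99, 0.441, 0.535 and 1.99 CPM in blood-activating libraries. Heat-clearing 1 and blood-activating 4 were the highest libraries, and all 4 ranges overlapped. In the 4-treatment edgeR test it had unadjusted p = 0.0248, adjusted p = 0.252. The yin-nourishing libraries were all below 1 CPM, and their log2 difference from blood-activating was -1.93 (SE 0.669, adjusted p = 0.15) in edgeR. It was -2.23 (adjusted p = 0.821) without the RN7SK-high libraries, and DESeq2 called the difference over all 20 libraries (adjusted p = 0.0471). The heat-clearing minus yin-nourishing difference was 1.92 (SE 0.669, adjusted p = 0.456) in edgeR.

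SARS1, the cytosolic seryl enzyme (chr1:109213918-109238169, plus strand), is a member of the ATF4 list whose windows held no match. It was at 42.6, 41.5, 30.1, 44.1 and 45.8 CPM in heat-clearing libraries, and at 34.2, 31.98, 27.03, 39.995 and 32.9 CPM in spleen-strengthening libraries. It was at 38.2, 32.98, 43.3, 33.2 and 30.9 CPM in yin-nourishing libraries, and at 44.2, 48.3, 38.9, 38.6 and 43.2 CPM in blood-activating libraries. Heat-clearing 3 was far below the other 4 heat-clearing libraries, and the spleen-strengthening and blood-activating ranges overlapped through spleen-strengthening 7. In the 4-treatment edgeR test it had unadjusted p = 0.0375, adjusted p = 0.291. The log2 difference of spleen-strengthening minus blood-activating was -0.36 (SE 0.130, adjusted p = 0.124) in edgeR, and -0.39 (adjusted p = 0.745) without the RN7SK-high libraries. Heat-clearing minus spleen-strengthening was 0.30 (SE 0.130, adjusted p = 0.383).

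RARS1, the arginyl enzyme (chr5:168486445-168519299, plus strand), showed narrow values in the blood-activating treatment. It was at 103, 108, 193, 133 and 153 CPM in heat-clearing libraries, and at 176, 185, 162, 131 and 157 CPM in spleen-strengthening libraries. It was at 160.3, 168, 149, 179 and 192 CPM in yin-nourishing libraries, and at 138, 135, 139, 129.8 and 131 CPM in blood-activating libraries. The 5 yin-nourishing libraries were all above the 5 blood-activating libraries, while heat-clearing spanned both, with heat-clearing 1 and 2 lowest. In the 4-treatment edgeR test it had unadjusted p = 0.051, adjusted p = 0.326. The log2 difference of yin-nourishing minus blood-activating was 0.34 (SE 0.137, adjusted p = 0.19) in edgeR, and 0.31 (adjusted p = 0.821) without the RN7SK-high libraries. Heat-clearing minus yin-nourishing was -0.30 (SE 0.137, adjusted p = 0.478), and -0.08 (adjusted p = 1) without those libraries.

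VARS1, the cytosolic valyl enzyme (chr6:31777518-31795953, minus strand), had its widest spread in the spleen-strengthening and yin-nourishing treatments. It was at 22.6, 21.6, 12.6, 20.2 and 19.1 CPM in heat-clearing libraries, and at 14.3, 13.2, 7.55, 20.3 and 9.29 CPM in spleen-strengthening libraries. It was at 16.04, 12.5, 20.3, 9.96 and 7.60 CPM in yin-nourishing libraries, and at 19.8, 17.2, 16.6, 17.9 and 20.3 CPM in blood-activating libraries. The lowest values were in spleen-strengthening 6 and 8 and yin-nourishing 7 and 10, and the other libraries of both treatments overlapped the rest. In the 4-treatment edgeR test it had unadjusted p = 0.0534, adjusted p = 0.331. Heat-clearing minus spleen-strengthening was 0.57 (SE 0.248, adjusted p = 0.381) on the log2 scale in edgeR.

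PARS2, the mitochondrial prolyl enzyme (chr1:54756898-54764514, minus strand), was highest in the RN7SK-high libraries. It was at 5.07, 3.53, 1.62, 2.32 and 1.96 CPM in heat-clearing libraries, and at 2.54, 1.95, 1.63, 1.94 and 1.48 CPM in spleen-strengthening libraries. It was at 2.50, 1.48, 2.31, 1.33 and 1.60 CPM in yin-nourishing libraries, and at 3.85, 2.52, 2.02, 3.02 and 3.38 CPM in blood-activating libraries. The 5 RN7SK-high libraries were all above the other 15, and the 4 treatments overlapped. In the 4-treatment edgeR test it had unadjusted p = 0.0551, adjusted p = 0.336.

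In the 6 pairs of treatments, edgeR called 0 of 36 members in any pair at an adjusted p under 0.05. The share of all rows called was 0.00807% in heat-clearing minus spleen-strengthening and 0% in each of the other 5 pairs. DESeq2 called 1 member in spleen-strengthening minus blood-activating, against 7.7% of all rows, and 1 in yin-nourishing minus blood-activating, against 4.11%. It called 0 in the other pairs, where 0.117% of rows (heat-clearing minus spleen-strengthening), 0.117% (heat-clearing minus yin-nourishing), 0.0403% (heat-clearing minus blood-activating) and 0.121% (spleen-strengthening minus yin-nourishing) were called. Limma voom called 10 members in spleen-strengthening minus blood-activating, against 19.8% of rows, and 7 in yin-nourishing minus blood-activating, against 16.8%. It called 0 in the others, against 0.0121% of rows in heat-clearing minus spleen-strengthening, 0.00403% in spleen-strengthening minus yin-nourishing and 0% in the remaining pairs. In heat-clearing minus spleen-strengthening, 5 members were higher and 1 lower at an unadjusted p under 0.05, against 8.44% and 3.03% of all rows. In heat-clearing minus yin-nourishing there were 4 higher and 1 lower, against 7.07% and 3.2%. In heat-clearing minus blood-activating there were 0 in either direction, against 0.795% of rows higher and 1.06% lower. In spleen-strengthening minus yin-nourishing there were also 0, against 2.66% and 2.05%. In spleen-strengthening minus blood-activating there were 4 higher and 5 lower, against 8.28% and 12.2%. In yin-nourishing minus blood-activating there were 4 higher and 3 lower, against 7.74% and 10.5%. Pairs with a treatment in common share its samples.

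**Figure D3:**
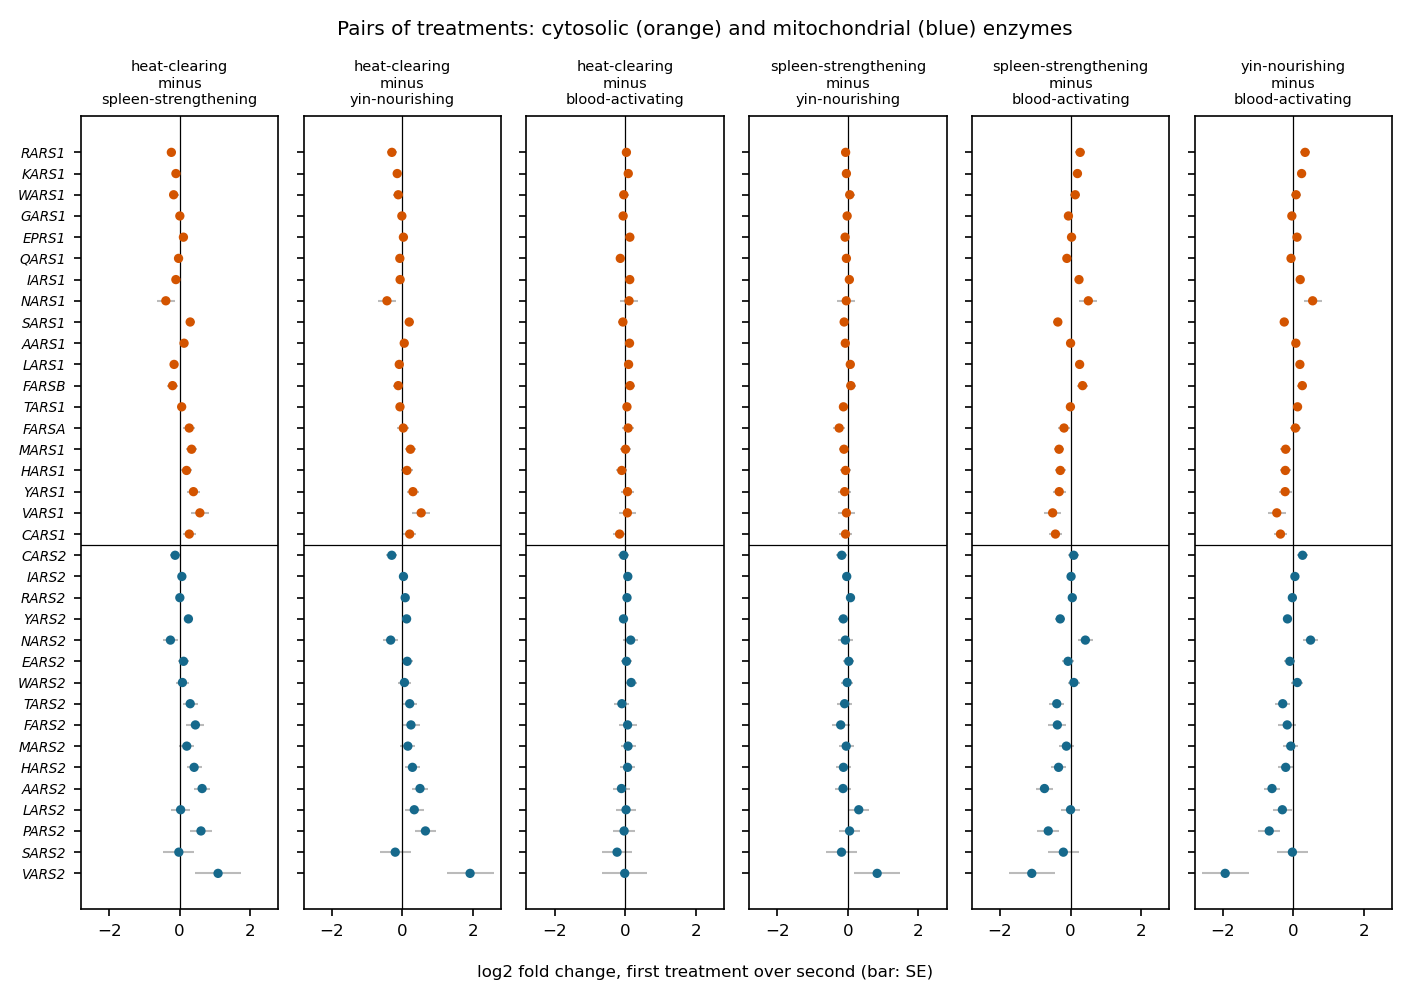
Log2 fold change of 35 of the 36 members, first treatment over second, in the 6 pairs, with the SE as a bar, cytosolic enzymes in orange above the line and mitochondrial enzymes in blue below. No member passed an adjusted p of 0.05 in edgeR, and the largest differences are those of VARS2, 1.92 in heat-clearing minus yin-nourishing and -1.93 in yin-nourishing minus blood-activating.

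Pairs of treatments rarely had ranges without overlap. In heat-clearing minus spleen-strengthening 0 members were higher and 0 lower in this way, against 0.799% and 0.46% of all rows. In heat-clearing minus yin-nourishing it was also 0 and 0, against 0.738% and 0.424%, in heat-clearing minus blood-activating 0 and 0, against 0.182% and 0.307%, and in spleen-strengthening minus yin-nourishing 0 and 0, against 0.42% and 0.351%. In spleen-strengthening minus blood-activating, 1 member was higher and 1 lower without overlap, against 1.94% and 2.49% of all rows. FARSB, the beta subunit of the phenylalanyl enzyme, had 63.5, 72.7, 65.9, 65.1 and 70.4 CPM in spleen-strengthening and 59.02, 57.5, 61.4, 37.04 and 51.7 CPM in blood-activating libraries. The log2 difference was 0.34 (SE 0.146, adjusted p = 0.182) in edgeR. YARS2, the mitochondrial tyrosyl enzyme, was the lower one, with 13.7, 13.7, 14.1, 14.3 and 14.3 CPM in spleen-strengthening and 19.8, 14.96, 15.98, 15.9 and 19.4 CPM in blood-activating libraries. The log2 difference was -0.29 (SE 0.138, adjusted p = 0.23). In yin-nourishing minus blood-activating, RARS1 and NARS2 were higher without overlap and 0 members lower, against 2.26% and 1.86% of rows. NARS2, the mitochondrial asparaginyl enzyme, had 14.4, 14.5, 14.6, 15.6 and 16.4 CPM in yin-nourishing and 8.48, 13.8, 14.1, 7.94 and 9.47 CPM in blood-activating libraries. The log2 difference was 0.49 (SE 0.207, adjusted p = 0.206), and the 3 RN7SK-high libraries held the 3 lowest blood-activating values. FARSB, YARS2 and NARS2 were named after their values were seen.

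Other members with the smallest p in a pair were further from the threshold. IARS1 had 120.5, 131, 119, 130.0 and 133 CPM in spleen-strengthening and 102, 123, 112, 89.05 and 111 CPM in blood-activating libraries. The ranges overlapped only through blood-activating 4, and the log2 difference was 0.24 (SE 0.0961, adjusted p = 0.157) in edgeR. Without the RN7SK-high libraries it was 0.12 (adjusted p = 0.957). In heat-clearing minus blood-activating the members with the smallest p were QARS1 (glutaminyl) at -0.14 (SE 0.0952, adjusted p = 1), IARS1 at 0.13 (SE 0.0960, adjusted p = 1) and EPRS1 at 0.13 (SE 0.102, adjusted p = 1). In spleen-strengthening minus yin-nourishing they were FARSA, the alpha subunit of the phenylalanyl enzyme, at -0.25 (SE 0.166, adjusted p = 1), VARS2 at 0.83 (SE 0.655, adjusted p = 1) and CARS2 (mitochondrial cysteinyl) at -0.17 (SE 0.151, adjusted p = 1).

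As lists, the cytosolic and mitochondrial sets were set beside all rows. The median log2 difference of the cytosolic members, of the mitochondrial members and of all rows tested was 0.03, 0.16 and 0.02 in heat-clearing minus spleen-strengthening. It was -0.04, 0.15 and 0.05 in heat-clearing minus yin-nourishing, with 13 of 16 mitochondrial members higher in each of these 2 pairs, against 51.8% and 54.4% of all rows. Without heat-clearing 1, an RN7SK-high library, the mitochondrial medians were 0.09 and 0.08 in these pairs, and without all 5 RN7SK-high libraries 0.05 and 0.04, with 10 of 16 higher in each. In heat-clearing minus blood-activating the medians of the 3 sets were 0.06, 0.03 and -0.01, where the mitochondrial one was -0.03 without heat-clearing 1, and in spleen-strengthening minus yin-nourishing -0.05, -0.06 and 0.00. In spleen-strengthening minus blood-activating they were 0.00, -0.16 and -0.04, and in yin-nourishing minus blood-activating 0.08, -0.13 and -0.09. The 8 enzymes of the multi-synthetase complex had a median of 0.22 in spleen-strengthening minus blood-activating, with 6 higher, against 47.1% of all rows. In the other pairs their median ran from -0.11 in heat-clearing minus spleen-strengthening to 0.19 in yin-nourishing minus blood-activating. It was not taken without the RN7SK-high libraries. In spleen-strengthening minus blood-activating, the 8 members with TGATGNAA in a window had a median of -0.03. The 22 members with a window and no match had -0.04.

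**Figure D4:**
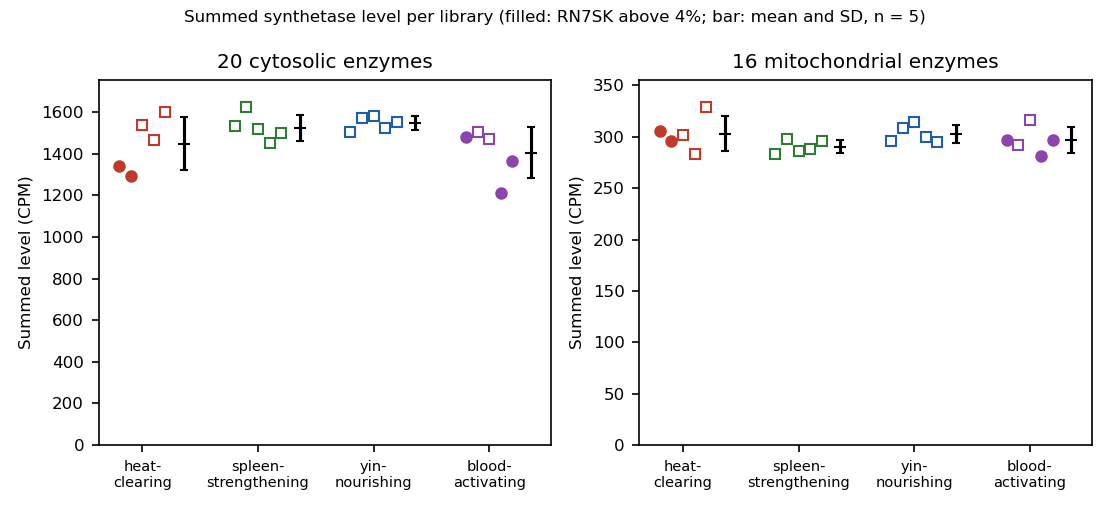
Summed level, in CPM, of the 20 cytosolic (left) and 16 mitochondrial (right) synthetase mRNAs in each library, with the mean and SD of 5 libraries beside them and RN7SK-high libraries filled. The cytosolic sum is 1210.3 to 1480.3 CPM in the 5 RN7SK-high libraries and 1454 to 1625 CPM in the other 15, and the mitochondrial sum is 281 to 305 CPM and 283 to 329 CPM.

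Several members set the RN7SK-high libraries apart from the others of the same treatment. In both the heat-clearing treatment (2 RN7SK-high against 3 others) and the blood-activating treatment (3 against 2), 12 of 36 members were apart, with no overlap and in the same direction, against 22.4% of all rows tested. No test is given, since these libraries were set apart from the data. There were 5 lower members, with IARS1, KARS1, NARS1 and NARS2 among them, against 10% of all rows. The 7 higher members were CARS1, QARS1, VARS1, AARS2, EARS2, PARS2 and TARS2, against 12.3%. NARS1, the cytosolic asparaginyl enzyme (chr18:57600656-57622213, minus strand), had the largest decrease of the lower members. It was at 35.4 to 48.02 CPM in the 5 RN7SK-high libraries and 72.1 to 111 CPM in the other 15. Its log2 difference of RN7SK-high minus other libraries was -0.99 in heat-clearing and -1.08 in blood-activating. KARS1, the lysyl enzyme, had 107 to 123 CPM in the 5 RN7SK-high libraries and 125 to 164 CPM in the other 15. In NARS1, KARS1 and NARS2 the 5 RN7SK-high libraries were below all 15 others.

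Among the higher members, PARS2 had 3.02 to 5.07 CPM in the 5 RN7SK-high libraries and 1.33 to 2.54 CPM in the other 15. TARS2, the mitochondrial threonyl enzyme, had 12.1 to 14.5 CPM in the 5 RN7SK-high libraries and 6.47 to 11.003 CPM in the other 15. CARS1 had 11.6 to 14.98 CPM in the 5 RN7SK-high libraries and 7.36 to 9.96 CPM in the other 15. AARS2 was likewise above all 15, with 9.81 to 12.4 CPM in the 5 RN7SK-high libraries and 4.43 to 9.37 CPM in the other 15. The transcripts of the 7 higher members had a median GC content of 54.9% and those of the 5 lower members 43.2%, against 49.7% in the other 24 members. Over all rows, the median was 57.7% for the rows higher in both treatments and 42.6% for those lower in both. The part of GC content in these differences was not tested. Without the 5 libraries, the members at an unadjusted p under 0.05 numbered 2 in spleen-strengthening minus blood-activating (9 with them), where 6.57% of all rows were at such a p, and 2 in yin-nourishing minus blood-activating (7 with them), where 5.99% were. They numbered 0 in heat-clearing minus spleen-strengthening (6 with them), where 4.45% of rows were, and 0 in heat-clearing minus yin-nourishing (5 with them), where 4.36% were. With these libraries, 8.28% (higher) and 12.2% (lower) of rows were at such a p in spleen-strengthening minus blood-activating. The shares were 7.74% and 10.5% in yin-nourishing minus blood-activating. They were 8.44% and 3.03% in heat-clearing minus spleen-strengthening, and 7.07% and 3.2% in heat-clearing minus yin-nourishing. Fewer heat-clearing and blood-activating libraries remained without the RN7SK-high ones, and the part of this in the counts was not tested.

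**Figure D5:**
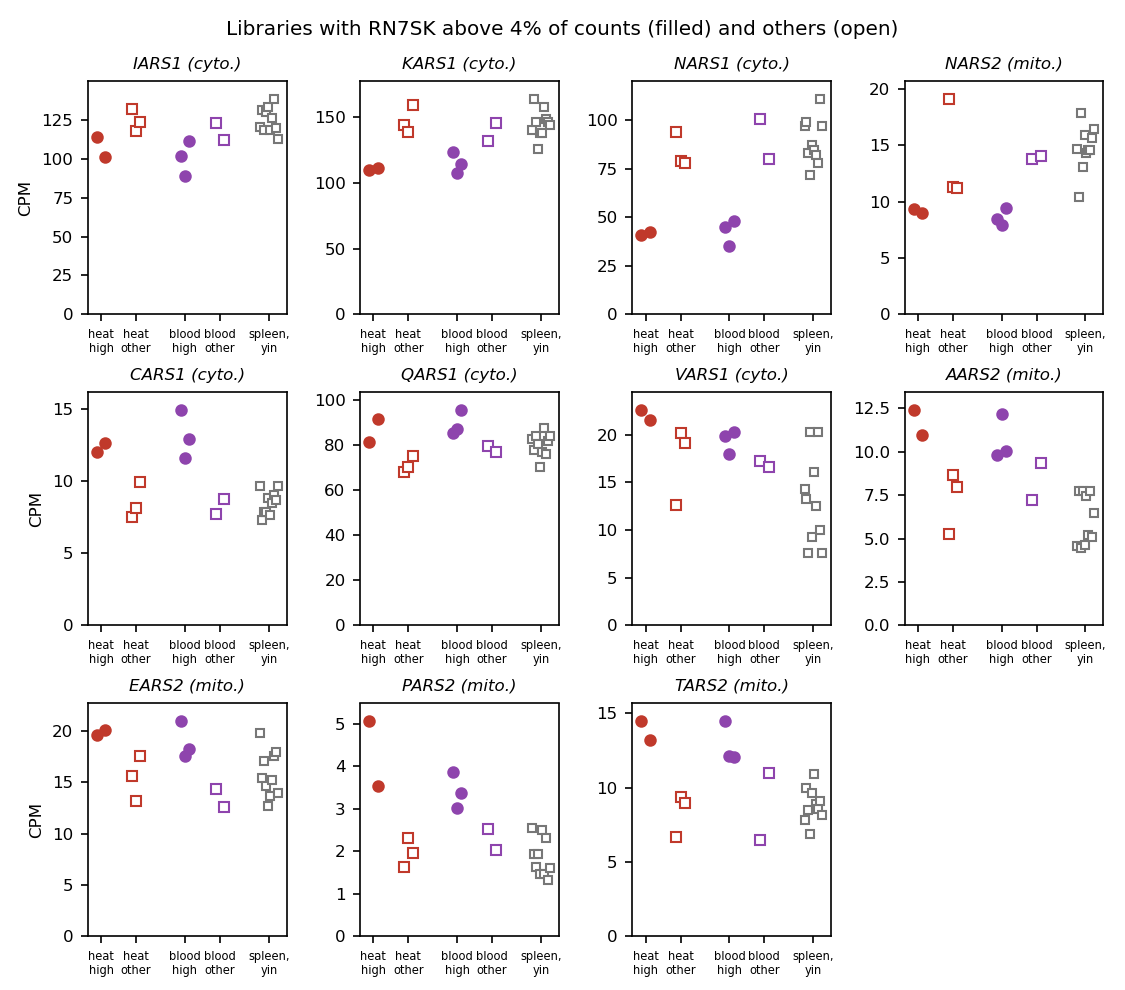
Level in CPM of 11 of the 12 members that were apart in RN7SK-high libraries (filled) from the other libraries (open) within both the heat-clearing (red) and the blood-activating (purple) treatment, with the 10 spleen-strengthening and yin-nourishing libraries in grey. The 4 panels from IARS1 to NARS2 show members that are lower in the filled libraries, and the 7 from CARS1 to TARS2 members that are higher.

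The genes that work beside the synthetases were read from 5 lists. In each of the 6 pairs, edgeR called 0 of 3 scaffold genes of the complex, 0 of 11 genes of tRNA charging and transport, 0 of 6 cytosolic and 0 of 4 mitochondrial elongation genes, and 0 of 25 stress-response genes. In spleen-strengthening minus blood-activating, 2, 4, 4, 0 and 11 genes of these lists, in that order, had an unadjusted p under 0.05, as did 8.28% (higher) and 12.2% (lower) of all rows. Without the RN7SK-high libraries these counts were 1, 1, 1, 0 and 6, against 6.57% of rows. Over all libraries DESeq2 called 1, 2, 3, 0 and 5 genes in that pair, against 7.7% of rows, and limma voom 2, 4, 5, 0 and 8, against 19.8%. In yin-nourishing minus blood-activating they were 1, 1, 2, 0 and 2 in DESeq2 (4.11% of rows), and 1, 2, 4, 1 and 7 in limma voom (16.8% of rows). EEF1E1, a scaffold of the complex also known as AIMP3, had 42.02, 54.5, 40.2, 31.3 and 37.9 CPM in spleen-strengthening and 24.3, 27.2, 24.6, 16.8 and 21.9 CPM in blood-activating libraries. All 5 spleen-strengthening libraries were above all 5 blood-activating ones, and the log2 difference was 0.84 (SE 0.253, adjusted p = 0.0939) in edgeR. Without the RN7SK-high libraries it was 0.68 (adjusted p = 0.751). In yin-nourishing libraries EEF1E1 had 39.9, 47.01, 27.8, 47.8 and 62.7 CPM, again all above blood-activating, and the difference was 0.97 (SE 0.253, adjusted p = 0.141). XPOT, the exporter of tRNA from the nucleus, had 189 ± 20.4 CPM in spleen-strengthening and 120.3 ± 30.6 CPM in blood-activating samples (SD, n = 5 each). The log2 difference was 0.65 (SE 0.224, adjusted p = 0.115), and 0.30 (adjusted p = 0.751) without the RN7SK-high libraries. In heat-clearing 1 and 2, which are RN7SK-high, XPOT was at 90.6 and 82.2 CPM, and in the other 3 at 230.5, 174 and 184 CPM. EEF1A2, an elongation factor that brings charged tRNA to the ribosome, had 8.53 ± 1.70 CPM in spleen-strengthening and 22.6 ± 11.2 CPM in blood-activating samples (SD, n = 5 each). The ranges overlapped, and the difference was -1.40 (SE 0.334, adjusted p = 0.0835), or -0.63 (adjusted p = 0.751) without the RN7SK-high libraries. GFM2, a mitochondrial factor that recycles ribosomes, had 39.6 ± 4.06 CPM in yin-nourishing and 31.8 ± 2.67 CPM in blood-activating samples (SD, n = 5 each), and the difference was 0.31 (SE 0.118, adjusted p = 0.168), or 0.20 (adjusted p = 0.918) when RN7SK-high libraries were left out.

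The stress-response list had 6 genes higher and 19 lower in spleen-strengthening minus blood-activating, of which 1 and 10 were at an unadjusted p under 0.05. Of all rows, 47.1% were higher and 52.9% lower in that pair, 8.28% and 12.2% at such a p. Without the RN7SK-high libraries, 6 of the 25 genes were at such a p. PPP1R15A, the stress-induced subunit of the phosphatase that restores translation, had 22.1, 16.6, 21.1, 17.96 and 15.3 CPM in spleen-strengthening and 38.2, 26.8, 48.8, 66.6 and 50.3 CPM in blood-activating libraries. All 5 spleen-strengthening libraries were below all 5 blood-activating ones, and the log2 difference was -1.31 (SE 0.211, adjusted p = 0.06) in edgeR, or -1.01 (adjusted p = 0.208) without the RN7SK-high libraries. DESeq2 called this difference (adjusted p = 3.3e-06), as did limma voom (adjusted p = 0.00329). ATF4 itself was at 116 to 188 CPM over the 20 libraries, and its difference in that pair was -0.15 (SE 0.105, adjusted p = 0.479). ASNS ran from 0.700 to 37.03 CPM, with the highest value in blood-activating 1. Its difference was -0.74 (SE 0.881, adjusted p = 0.73), and 1.53 (adjusted p = 0.869) without the RN7SK-high libraries, of which blood-activating 1 is one. Blood-activating 1 was also the highest of the 20 libraries in 9 of 36 synthetases and in 5 of the 12 on the ATF4 list. These 5 were AARS1 at 87.1 CPM, CARS1 at 14.98 CPM, GARS1 at 126 CPM, MARS1 at 34.98 CPM and WARS1 at 234 CPM. Heat-clearing 1, also RN7SK-high, was the highest in 8 synthetases, of which 1 is on that list. How often each library is the highest over all rows was not counted, so these counts have no background. Other members of that list went the other way in blood-activating 1. EPRS1 was at 123.6 CPM and LARS1 at 64.8 CPM there, the lowest of the 20 libraries for each. NARS1 was at 45.2 CPM and IARS1 at 102 CPM in the same library. These genes were picked after their values were seen.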

How the data were processed

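Per the labels, ribosomal RNA was removed from total RNA before libraries were made with a kit that marks strand. HISAT2, StringTie and the build hg38 are named in the submitters' processing notes, with no versions. The authors deposited raw counts per gene and sample, not normalised. The gene annotation, the strand setting of the counting and the treatment of any mouse reads are not stated in the labels or notes. Counts were normalised by TMM and tested with edgeR 4.0.16 (R 4.3.3, robust quasi-likelihood F-test, all 20 samples in 1 fit, filter with a minimum count of 10). Benjamini-Hochberg adjustment covered the 24790 rows tested, with a threshold of 0.05, and the procedure was tested on simulated data. DESeq2 1.42.0 and limma 3.58.1 were alternatives, with other scalings, filters, covariates and left-out libraries. CPM values use TMM-scaled totals. Transcript lengths, GC content and gene positions came from GENCODE release 29.

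The members and lists were chosen with earlier results of these data known. All 36 members enter the counts, medians and sums, and 1 of them is not reported here by name or drawn by itself. Full statistics are given for the 6 members with the smallest p in the 4-treatment test and the 3 in each pair. Per-length levels are given for the 3 highest and 3 lowest members of each compartment. Each pathway list is shown by its gene with the smallest p in the 4-treatment test, with ATF4 and ASNS. Whole promoter windows of members with full statistics are shown only where they hold the word searched. No 2 libraries were identical, and pairs within a group differed by 59.9 to 651 times the counting noise (chi-square per degree of freedom). The spread between samples therefore outweighs counting error at these depths.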

Additional observations from a re-analysis of the deposited data

Results flagged for a closer look

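In each treatment, each member, 7 other pathway genes and the cytosolic and mitochondrial sums were checked for a library far from the other 4. The measure was the gap to the nearest value over the whole range, on the CPM scale. Of 180 groups of 5 checked, 10 had such a library, and of the 144 groups of members, 7 did. Chance flags about 1 in 20 groups. Yin-nourishing 10 was low in FARSB, at 56.4 CPM with the others at 64.0 to 66.9 CPM, and in HARS2, at 2.89 CPM with the others at 6.32 to 7.33 CPM. Heat-clearing 3 was low in SARS1, at 30.1 CPM with the others at 41.5 to 45.8 CPM, and high in NARS2, at 19.1 CPM with the others at 8.999 to 11.3 CPM. Spleen-strengthening 7 was high in YARS1, at 20.6 CPM with the others at 11.2 to 13.8 CPM, and low in MARS2, at 3.93 CPM with the others at 8.86 to 10.6 CPM. Blood-activating 8 was low in YARS1, at 14.4 CPM with the others at 18.0 to 19.1 CPM.

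Outside the synthetases, EEF1A2 was at 5.004 CPM in yin-nourishing 5 with the others at 10.5 to 12.1 CPM, and GFM2 was at 38.1 CPM in spleen-strengthening 6 with the others at 28.997 to 31.3 CPM. ASNS was at 37.03 CPM in blood-activating 1 with the others at 1.47 to 3.9997 CPM.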

How the results depend on the processing

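With edgeR over all 36 members, the count of calls stayed at 0 in every comparison under 2 other scalings, 2 other filters, a term for the letter in the title, a term for the RN7SK-high libraries, leaving those libraries out, and each pair fitted alone. DESeq2 called 1 member in the 4-treatment test, 1 in spleen-strengthening minus blood-activating (AARS2) and 1 in yin-nourishing minus blood-activating (VARS2), where limma voom called 3, 10 and 7. The acinar level as a covariate gave 2 in spleen-strengthening minus blood-activating, SARS1 and AARS2. Over all rows, that pair had 0 calls in edgeR, 1910 in DESeq2, 4910 in voom, 1832 with the acinar covariate and 2002 without blood-activating 4. The 4-treatment test had 0, against 1233 in DESeq2, 3327 in voom and up to 378 with 1 library left out, and yin-nourishing minus blood-activating had 0, against 1020, 4172 and up to 361. In the other 4 pairs DESeq2 called 10 to 30 rows, against 0 to 2 in edgeR. Leaving out 1 library at a time gave 0 to 1 called members in spleen-strengthening minus blood-activating, the 1 without blood-activating 4 (AARS2), and 0 in the others. The median log2 difference of the cytosolic members in yin-nourishing minus blood-activating was -0.0128 to 0.0945 with 1 library left out, lowest without blood-activating 8. With 1 library left out, the medians that took both signs were the cytosolic ones in heat-clearing minus blood-activating (-0.0089 to 0.083), heat-clearing minus yin-nourishing (-0.065 to 0.0022), spleen-strengthening minus blood-activating (-0.061 to 0.019) and yin-nourishing minus blood-activating, and the mitochondrial one in heat-clearing minus blood-activating (-0.030 to 0.076). The heat-clearing minus blood-activating difference of EPRS1 turned to -0.0041 without the RN7SK-high libraries. The causes of these changes were not tested. With the number in the title as a replicate block, 0 members were called in every comparison. The 12 same-numbered pairs had correlations of -0.036 to 0.131, with 1 above 0.1, against 4 of 138 pairs with different numbers. Such correlations cannot exclude that samples of the same number share an animal or a batch. The spread between samples, and the use of 5 samples per group, set the precision.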
